A study of Mus musculus with 5 samples.

Results

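The 10 genes described here encode chemokine ligands that microglia can make: Ccl2, Ccl3, Ccl4, Ccl5, Ccl6, Ccl7, Ccl9, Ccl12, Cxcl2 and Cxcl16. They were chosen by name from the 56748 genes of the count table, and all 10 were among the 17724 genes that passed the low-count filter. Chemokines are small secreted proteins that form gradients and draw leukocytes and microglia toward a source by binding G protein-coupled receptors. They are divided by the spacing of their first cysteines into CC ligands (Ccl genes), CXC ligands (Cxcl genes) and smaller classes. In the brain, microglia are a main source of several CC ligands, and Ccl3 and Ccl4 are known as genes that microglia switch on quickly, also when tissue is taken apart.

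RNA-seq was made at an age of 7 months from brain cells positive for CD11b, an integrin subunit found on microglia, macrophages, monocytes and neutrophils; the cerebellum was left out. The sample descriptions speak of brain tissue, while the titles and the extraction protocol speak of the CD11b-positive cells. The transgenic mice were 5xFAD/Cd5l tg/wt (3 libraries, replicates 1, 2 and 3), in which the human PDGF-B promoter drives a mouse Cd5l transgene. This promoter is often used to drive transgenes in neurons. These mice are called Cd5l-transgenic here. They were set against 5xFAD mice without that transgene (2 libraries, replicates 1 and 3). Both groups carry the 5xFAD transgenes, which include mutant human APP, and develop amyloid plaques, so neither is free of pathology; wild-type mice, which the study design also names, were not analysed here. The sources used here do not give the sex, the strain background or how the cells were isolated. Each library was labelled as 1 mouse. CD5L is a protein secreted by macrophages, and the question was how chemokine RNA in CD11b-positive cells compared between mice with and without the transgene.

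The libraries held between 30798377 and 34794617 counts. The data column of Cd5l-transgenic replicate 3 spells the library name with its letter pairs swapped, so its match rests on the letters and the number. Cd5l was at 234, 335 and 195 CPM in the Cd5l-transgenic libraries, against 1.52 and 0.254 CPM in the 5xFAD libraries. All 5 libraries thus matched their labels for the transgene, while Cd5l cannot tell replicates within a group apart. CPM are counts scaled to library size, here with TMM factors. The 12 microglia markers, all detected, summed to between 28769 and 30772 CPM in the Cd5l-transgenic libraries and to 28371 and 30753 CPM in the 5xFAD libraries. Markers of other cells differed between the libraries. Erythroid markers summed to 7.40, 20.8 and 8.53 CPM in Cd5l-transgenic replicates 1, 2 and 3, against 2.41 and 1.47 CPM in the 5xFAD libraries. For mural cell and fibroblast markers the sums were 228, 396 and 316 CPM, against 161 and 234 CPM. Neutrophil markers summed to 204 and 158 CPM in Cd5l-transgenic replicates 1 and 2, against at most 80.6 CPM in the other libraries. Oligodendrocyte markers summed to 4179 CPM in Cd5l-transgenic replicate 2, and choroid plexus and ependyma markers to 2825 CPM in 5xFAD replicate 3, against at most 1063 and 542 CPM in the other libraries. Without these libraries together, 5xFAD replicate 1 was the only 5xFAD library left. The log2 fold changes of Ccl3, Ccl4 and Cxcl2 were then -0.22, -0.26 and -0.44. Those of Ccl12, Ccl9, Ccl2 and Ccl7 were then 0.69, 0.58, 0.56 and 0.56, against 0.32, 0.29, 0.02 and -0.04 with all 5 libraries. These values rest on that 5xFAD mouse, which is assumed to vary like the other group. That library itself stood apart in Spp1 and Gpnmb, at 2766 and 2121 CPM. These genes were at 603 and 431 CPM in 5xFAD replicate 3, and at most 744 and 547 CPM in the Cd5l-transgenic libraries. Without 5xFAD replicate 3 alone Ccl2 and Ccl7 were at 0.40 and 0.31, and without Cd5l-transgenic replicate 2 alone at 0.19 and 0.22. Because these are bulk samples, fewer cells of a type and less RNA per cell cannot be told apart.

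None of the 10 ligands passed the test between the genotypes. In the edgeR quasi-likelihood test 0 of 10 were called higher and 0 of 10 lower, where 0% of all 17724 genes were called at an adjusted p under 0.05. DESeq2 called 0 of 10, with 0.0621% of all genes called, and limma-voom 0 of 10, with 0% of all genes called. At an unadjusted p under 0.05 edgeR had 1 ligand lower (Cxcl2) and 0 higher, where 1.46% of all genes were lower, 1.22% higher and 2.68% either at that level. The edgeR test did not call Cd5l either (log2 fold change 8.23, adjusted p = 0.765), with a ratio of means of 286, so a missing call does not show that a ligand was unchanged. The log2 fold changes of the ligands, Cd5l-transgenic minus 5xFAD, lay above 0 for 5 and below 0 for 5, where 57.1% of all genes lay below 0. Their median was -0.0025, beside a median of -0.027 over all genes tested. The edgeR adjusted p was 0.999 for each ligand.

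**Figure D1:**
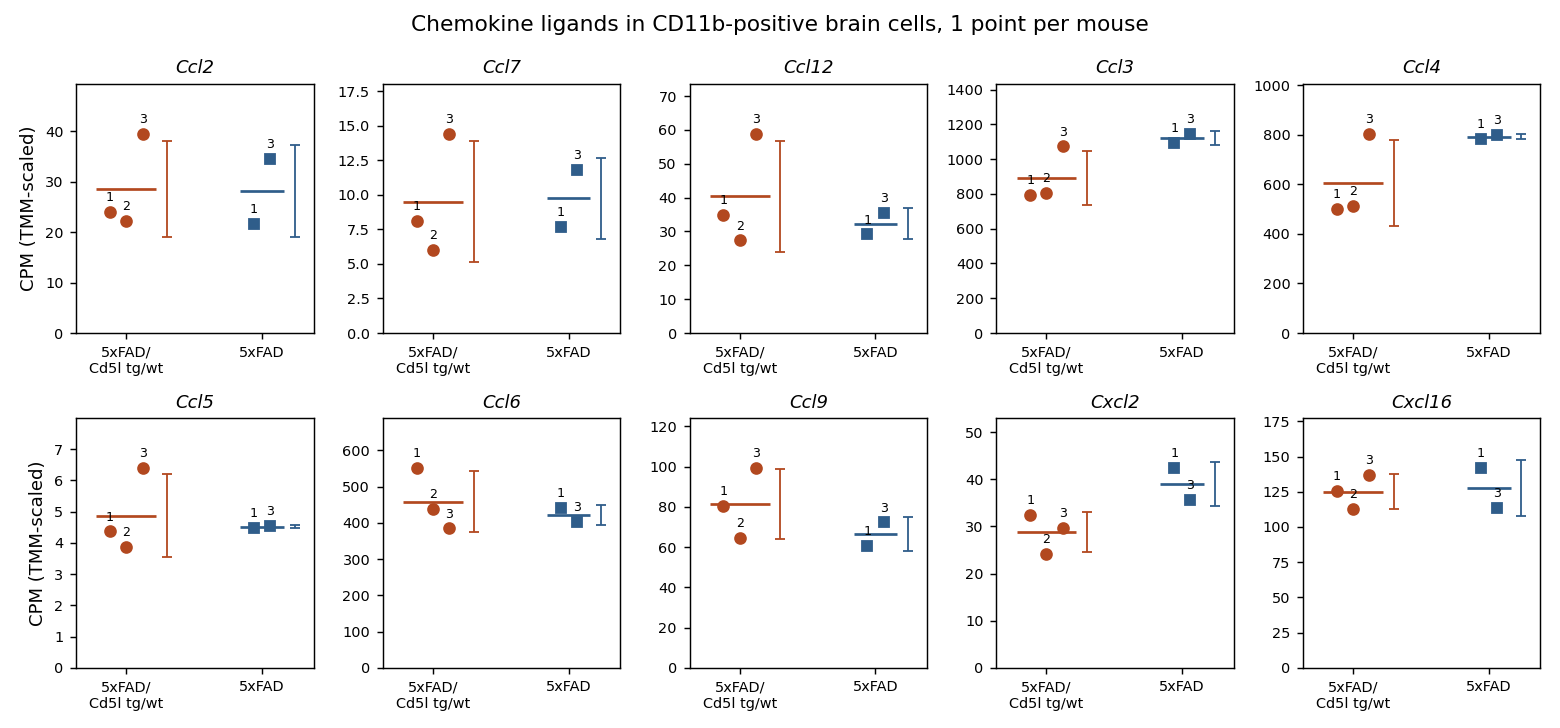
Level of each ligand in CPM (vertical axes from 0, TMM-scaled), 1 point per mouse labelled by replicate number, Cd5l-transgenic on the left and 5xFAD on the right of each panel. Lines are group means and bars SD (n = 3 and n = 2). Ccl3 and Ccl4 in Cd5l-transgenic replicate 3 stand near the 5xFAD points, while replicates 1 and 2 stand lower.

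Levels differed far more between ligands than between mice. To compare genes, CPM were divided by the gene length that the authors' table lists, in kb. Ccl3 had the highest level, at 1164 ± 205 CPM per kb in the Cd5l-transgenic libraries and 1461 ± 51.7 CPM per kb in the 5xFAD libraries (SD, n = 3 and 2). On this scale it ranked 22 among all genes tested, and Ccl4 ranked 31, at 917 ± 262 CPM per kb in the Cd5l-transgenic libraries and 1199 ± 15.2 CPM per kb in the 5xFAD libraries (SD, n = 3 and 2). Ccl6 followed at a mean of 247 CPM per kb over the 5 libraries (rank 140) and Ccl12 at 69.2 CPM per kb (rank 550). Cxcl16 averaged 41.8, Ccl2 25.0, Ccl9 24.8, Cxcl2 15.9, Ccl7 12 and Ccl5 4.92 CPM per kb. The order of neighbours from Ccl3 down to Ccl2 held in 5 of 5 libraries. Ccl2 stood above Ccl9 in 2 of 5 libraries, Ccl9 above Cxcl2 in 4 of 5 and Cxcl2 above Ccl7 in 4 of 5. The order of these neighbours was thus not the same in every library, and their differences were not tested. Ccl7 stood above Ccl5 in 5 of 5.

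**Figure D2:**
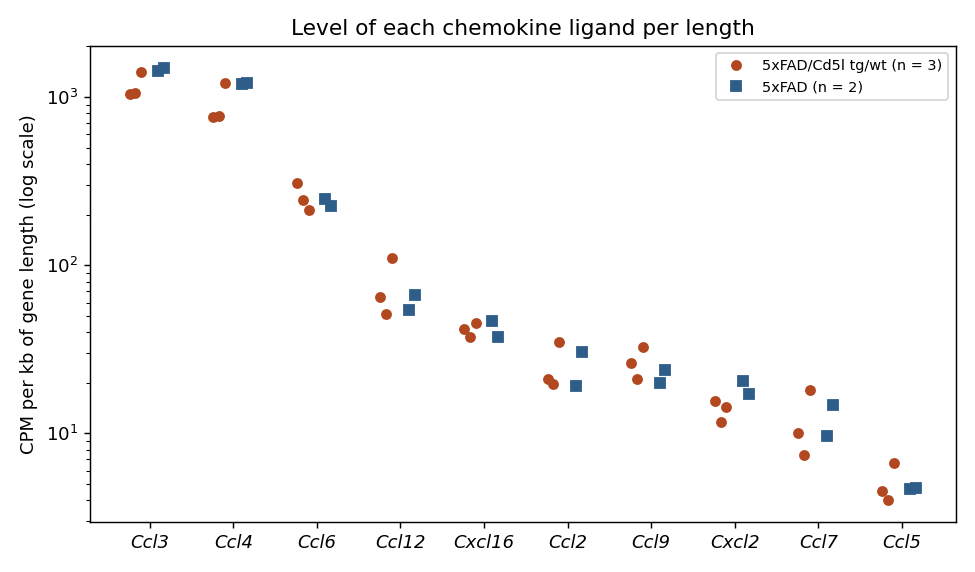
Level of each ligand per gene length (CPM per kb, log axis), ordered by the mean over the 5 libraries. Circles are the 3 Cd5l-transgenic libraries and squares the 2 5xFAD libraries. The levels span from above 1000 CPM per kb for Ccl3 to 4.92 CPM per kb for Ccl5 as a mean.

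Ccl3 and Ccl4 encode the macrophage inflammatory proteins 1 alpha and 1 beta, which draw monocytes, macrophages and T cells, and Ccr1 is a receptor of Ccl3. Ccl3 (ENSMUSG00000000982, chromosome 11, 83538670 to 83540181, minus strand, GRCm39) stood at 796, 806 and 1073 CPM in Cd5l-transgenic replicates 1, 2 and 3, against 1091 and 1147 CPM in 5xFAD replicates 1 and 3. All 3 Cd5l-transgenic libraries lay below both 5xFAD libraries, but replicate 3 by a small margin. Among all genes tested, 8.69% showed such a lower, non-overlapping range, and among the ligands 2 of 10 did, Ccl3 and Cxcl2. The means were 892 ± 157 CPM in the Cd5l-transgenic libraries and 1119 ± 39.6 CPM in the 5xFAD libraries (SD, n = 3 and 2), a log2 fold change of -0.33 (SE 0.16, edgeR unadjusted p = 0.0818, adjusted p = 0.999). Ccl4 (ENSMUSG00000018930, chromosome 11, 83553410 to 83555509, plus strand) stood at 500.1, 511 and 805 CPM in Cd5l-transgenic replicates 1, 2 and 3, against 784 and 798 CPM in the 5xFAD libraries. Replicates 1 and 2 were well below both 5xFAD libraries and replicate 3 was above both, so the groups overlapped. Its log2 fold change was -0.39 (SE 0.23, edgeR adjusted p = 0.999).

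These neighbouring genes had similar profiles. The profile of each ligand was taken as its log2 CPM minus its mean over the 5 libraries, and the root mean square distance between the profiles of Ccl3 and Ccl4 was 0.10, the smallest of all pairs of ligands. Their summed level was 1296, 1318 and 1878 CPM in Cd5l-transgenic replicates 1, 2 and 3, against 1875 and 1945 CPM in the 5xFAD libraries. The ratio of Ccl3 to Ccl4 counts, which does not depend on scaling, was 1.59, 1.58 and 1.33 in the Cd5l-transgenic libraries, against 1.39 and 1.44 in the 5xFAD libraries. Ccl4 was thus the lower of the pair, relative to Ccl3, in the Cd5l-transgenic libraries where both were low. Without Cd5l-transgenic replicate 3 the log2 fold changes were -0.46 for Ccl3 and -0.63 for Ccl4 (edgeR adjusted p = 0.883 for both). An antisense lncRNA (ENSMUSG00000120024) shares 853 bases with Ccl3 and had 914 to 1007 counts in the Cd5l-transgenic libraries and 1114 and 1212 counts in the 5xFAD libraries, small beside the 24618 to 40649 counts of Ccl3.

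Ccl5 (RANTES; ENSMUSG00000035042, chromosome 11, 83416604 to 83421344, minus strand), another ligand of Ccr1 and a chemokine also known from T and NK cells, was the lowest of the 10. It stood at 4.36, 3.86 and 6.38 CPM in Cd5l-transgenic replicates 1, 2 and 3 (135, 123 and 211 counts), against 4.47 and 4.54 CPM in the 5xFAD libraries (132 and 161 counts). Cd5l-transgenic replicate 3 alone was high, with an exact 95% Poisson interval of 5.55 to 7.31 CPM, against 3.87 to 5.30 CPM for 5xFAD replicate 3, and the groups overlapped. These intervals cover counting error only. The log2 fold change was 0.11 (SE 0.28), and -0.11 without Cd5l-transgenic replicate 3. The 12 T and NK cell markers summed to 8.69, 7.97 and 11.7 CPM in the Cd5l-transgenic libraries and to 11.2 and 10.5 CPM in the 5xFAD libraries. No marker was at 0 in all 5 libraries. Their part in the Ccl5 values was not tested.

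Promoter sequences are shown for Ccl3, the most abundant ligand, Cxcl2, the ligand with the smallest edgeR p over all 5 libraries, and the neighbours Ccl6 and Ccl9, which differed in pattern. RefSeq promoter windows of build GRCm38.p6, from 250 bases before to 50 bases after the gene start, matched 5 of the 10 ligands (Ccl3, Ccl6, Ccl9, Ccl12 and Cxcl2); Ccl2, Ccl4, Ccl5, Ccl7 and Cxcl16 had no match. Capitals mark matches to the kB consensus, which NF-kB binds, and to the AP-1 motif TGANTCA, on either strand, and each sequence runs 5′ to 3′ on the strand of its gene. The windows are chr11:83649329-83649628 (minus strand) for Ccl3, chr5:90903649-90903948 (plus strand) for Cxcl2, chr11:83593038-83593337 (minus strand) for Ccl6 and chr11:83578587-83578886 (minus strand) for Ccl9, all in GRCm38.p6.
Ccl3: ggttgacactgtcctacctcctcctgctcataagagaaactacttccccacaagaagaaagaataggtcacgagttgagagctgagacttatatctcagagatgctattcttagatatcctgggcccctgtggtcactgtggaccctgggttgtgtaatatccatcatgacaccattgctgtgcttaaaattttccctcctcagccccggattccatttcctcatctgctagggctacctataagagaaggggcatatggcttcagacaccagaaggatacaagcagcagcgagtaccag
Cxcl2: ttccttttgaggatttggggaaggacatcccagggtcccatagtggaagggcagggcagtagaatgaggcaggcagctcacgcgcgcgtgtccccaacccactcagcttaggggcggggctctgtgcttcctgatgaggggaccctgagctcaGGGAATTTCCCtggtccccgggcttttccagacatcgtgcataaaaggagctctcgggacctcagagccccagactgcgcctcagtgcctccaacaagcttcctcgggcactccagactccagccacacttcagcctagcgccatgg
Ccl6: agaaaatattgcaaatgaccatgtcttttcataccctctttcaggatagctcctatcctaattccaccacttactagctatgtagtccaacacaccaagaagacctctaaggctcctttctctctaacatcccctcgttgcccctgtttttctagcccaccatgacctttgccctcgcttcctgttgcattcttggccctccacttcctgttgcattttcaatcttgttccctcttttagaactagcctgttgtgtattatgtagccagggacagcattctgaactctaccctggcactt
Ccl9: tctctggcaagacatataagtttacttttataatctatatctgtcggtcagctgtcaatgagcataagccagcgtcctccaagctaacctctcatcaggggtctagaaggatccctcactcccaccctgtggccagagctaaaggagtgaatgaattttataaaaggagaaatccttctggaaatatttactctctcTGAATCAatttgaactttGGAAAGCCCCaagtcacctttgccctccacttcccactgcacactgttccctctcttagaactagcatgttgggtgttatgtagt
No letters are in capitals in the Ccl3 and Ccl6 windows, which says only that these motifs are not in them. The kB consensus matched in 2 of the 5 windows, Cxcl2 and Ccl9, where 4.51% of all 32851 windows held it. In Cxcl2 the matches on the plus and minus strand overlap, and on the plus strand the match begins at -97, counted with the gene start as 0. In Ccl9 it runs from -35 to -26 on the minus strand of the window. The AP-1 motif, which reads the same on both strands, matched in 1 of the 5 (Ccl9, from -53), where 7.81% of all windows held it. A match is a run of letters and not a measured binding site. The Ccl6 and Ccl9 windows were identical at 71.1% of 239 aligned positions, the highest of the pairs compared, against 57.0% to 66.0% for the others.

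Cxcl2 encodes macrophage inflammatory protein 2, a ligand of Cxcr2 that draws neutrophils. Cxcl2 (ENSMUSG00000058427, chromosome 5, 91051730 to 91053797, plus strand, GRCm39) stood at 32.4, 24.1 and 29.8 CPM in Cd5l-transgenic replicates 1, 2 and 3, against 42.4 and 35.6 CPM in 5xFAD replicates 1 and 3. All Cd5l-transgenic libraries lay below both 5xFAD libraries. Cxcl2 averaged 28.8 ± 4.24 CPM in the Cd5l-transgenic libraries and 39.0 ± 4.75 CPM in the 5xFAD libraries (SD, n = 3 and 2). Its log2 fold change of -0.44 (SE 0.15) was the largest in size among the ligands with all 5 libraries in the edgeR fit, with an unadjusted edgeR p of 0.0254 and an adjusted p of 0.999. It was not the largest under some other settings: that of Ccl4 was -0.55 with limma-voom, where Cxcl2 was at -0.34, and -0.63 without Cd5l-transgenic replicate 3, where Cxcl2 was at -0.45. Cxcl2 differed from Ccl3 and Ccl4 in pattern: Cd5l-transgenic replicate 3 was not at the 5xFAD level, and replicate 2 was lowest. Of its 1810 distinct transcript stretches of 50 bases, 3.37% also occur in Cxcl3, which had at most 3 counts in any library.

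The monocyte chemoattractants Ccl2 (MCP-1), Ccl7 (MCP-3) and Ccl12 (MCP-5), ligands of Ccr2, lie within 67.8 kb of each other on chromosome 11 (81926397 to 81994226, all on the plus strand). Their common feature was a high value in Cd5l-transgenic replicate 3. Ccl2 (ENSMUSG00000035385) stood at 24.0, 22.3 and 39.5 CPM in Cd5l-transgenic replicates 1, 2 and 3, against 21.7 and 34.5 CPM in 5xFAD replicates 1 and 3. Cd5l-transgenic replicate 3 and 5xFAD replicate 3 were high and the others low, so the groups overlapped. Ccl7 (ENSMUSG00000035373) stood at 8.11, 5.99 and 14.4 CPM in the Cd5l-transgenic libraries, against 7.69 and 11.8 CPM in the 5xFAD libraries, with the same libraries high. Ccl12 (ENSMUSG00000035352) stood at 34.8, 27.4 and 58.9 CPM in the Cd5l-transgenic libraries, against 29.1 and 35.6 CPM in the 5xFAD libraries, and here Cd5l-transgenic replicate 3 alone stood out.

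The log2 fold changes of the Ccr2 ligands were 0.02 for Ccl2 (SE 0.33), -0.04 for Ccl7 (SE 0.41) and 0.32 for Ccl12 (SE 0.34), the widest errors of the 10 ligands. Their signs turned with single libraries. Without Cd5l-transgenic replicate 3 they were -0.26 for Ccl2, -0.45 for Ccl7 and -0.04 for Ccl12, so Ccl7 kept its sign there. It turned without Cd5l-transgenic replicate 1 (0.065), Cd5l-transgenic replicate 2 (0.22) or 5xFAD replicate 3 (0.31). Summed, the 3 genes stood at 66.8, 55.7 and 112.9 CPM in Cd5l-transgenic replicates 1, 2 and 3, against 58.5 and 81.9 CPM in 5xFAD replicates 1 and 3. Border macrophages, which express these ligands as well, were followed by 8 markers, all of them detected, among them the mannose receptor Mrc1. These markers summed to 345, 223 and 402 CPM in the Cd5l-transgenic libraries and to 257 and 293 CPM in the 5xFAD libraries. The highest library was the same for both sums, Cd5l-transgenic replicate 3. Their part in the values of the Ccr2 ligands was not tested.

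Ccl6 and Ccl9, ligands of Ccr1 in mice, are neighbours on the minus strand of chromosome 11 and had different profiles. Ccl6 (ENSMUSG00000018927, 83478708 to 83483913) stood at 550.4, 439 and 384 CPM in Cd5l-transgenic replicates 1, 2 and 3, against 442 and 403 CPM in 5xFAD replicates 1 and 3. It was highest in Cd5l-transgenic replicate 1 and lowest in replicate 3, while 6 of the other ligands were highest in replicate 3. Ccl9 (ENSMUSG00000019122, 83463745 to 83469462) stood at 80.4, 64.5 and 99.2 CPM in the Cd5l-transgenic libraries, against 60.5 and 72.3 CPM in the 5xFAD libraries, highest in replicate 3. The ratio of Ccl6 to Ccl9 counts was 6.85, 6.81 and 3.87 in the Cd5l-transgenic libraries, against 7.31 and 5.58 in the 5xFAD libraries. The log2 fold changes were 0.12 for Ccl6 (SE 0.16) and 0.29 for Ccl9 (SE 0.20), and for each gene the groups overlapped. Without Cd5l-transgenic replicate 1 that of Ccl6 was -0.04, and without Cd5l-transgenic replicate 3 that of Ccl9 was 0.14. The root mean square distance between their profiles was 0.33, beside 0.15 between Ccl5 and Ccl9.

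Cxcl16 encodes a membrane-bound chemokine that is also a scavenger receptor for oxidised lipoproteins and binds Cxcr6. Cxcl16 (ENSMUSG00000018920, chromosome 11, 70344809 to 70350810, minus strand) stood at 125, 113 and 137 CPM in Cd5l-transgenic replicates 1, 2 and 3, against 142 and 114 CPM in the 5xFAD libraries. It was the most even of the ligands, with a highest library 1.26 times its lowest, against 2.41 times for Ccl7, and its log2 fold change was -0.03 (SE 0.13). Of its 2513 distinct transcript stretches of 50 bases, 503 also occur in Zmynd15 on the other strand, which had 600 to 618 counts in the Cd5l-transgenic libraries and 637 and 620 counts in the 5xFAD libraries, against 3599 to 4534 counts of Cxcl16.

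**Figure D3:**
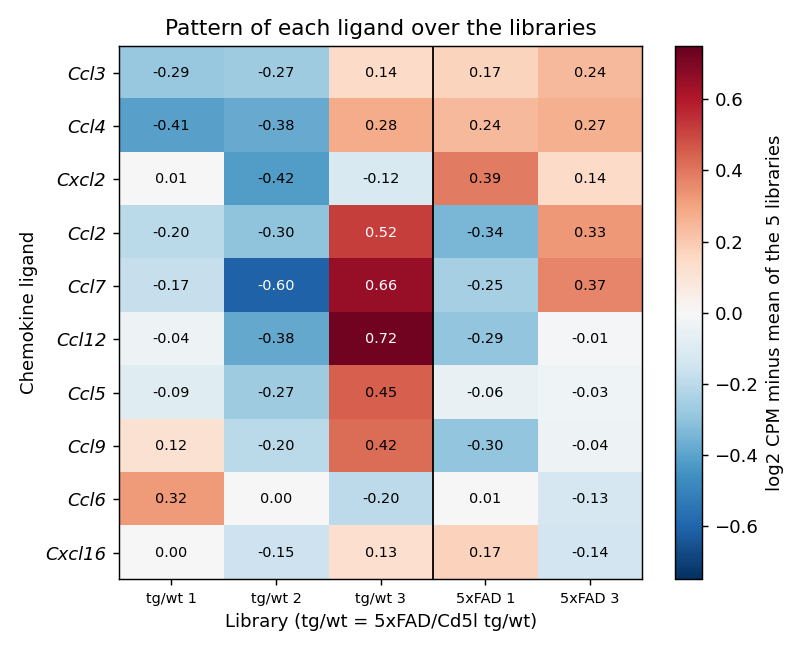
Log2 CPM of each ligand (rows) minus its mean over the 5 libraries (columns, Cd5l-transgenic left of the line, 5xFAD right). Red is above and blue below the mean. Ccl3 and Ccl4 are below their means in Cd5l-transgenic replicates 1 and 2, Ccl2, Ccl7, Ccl12, Ccl5 and Ccl9 peak in replicate 3, and Ccl6 peaks in replicate 1.

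Over all 10 ligands, Cd5l-transgenic replicate 3 was the highest library for 6, where it was the highest for 18.8% of all genes tested. Cd5l-transgenic replicates 1 and 2 both lay below the other 3 libraries for 3 ligands (Ccl3, Ccl4 and Ccl5), where 16.2% of all genes did so. For Ccl5 the margin was small, 4.36 CPM in Cd5l-transgenic replicate 1 against 4.47 CPM in 5xFAD replicate 1. The exact 95% Poisson intervals of these values overlapped (3.66 to 5.16 and 3.74 to 5.30 CPM). Both counts of ligands were chosen after the values had been seen. The summed level of the 10 ligands was 2156, 2018 and 2648 CPM in Cd5l-transgenic replicates 1, 2 and 3, against 2625 and 2657 CPM in the 5xFAD libraries, so replicate 3 lay between the 5xFAD libraries. The ratio of the means was 0.861, and 0.790 without Cd5l-transgenic replicate 3. Ccl3 and Ccl4 made up 60.1% to 70.9% of that sum in the Cd5l-transgenic libraries and 71.4% and 73.2% in the 5xFAD libraries. Without these genes the sums were 860, 700.0 and 770 CPM in the Cd5l-transgenic libraries and 750 and 711 CPM in the 5xFAD libraries, which overlapped.

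**Figure D4:**
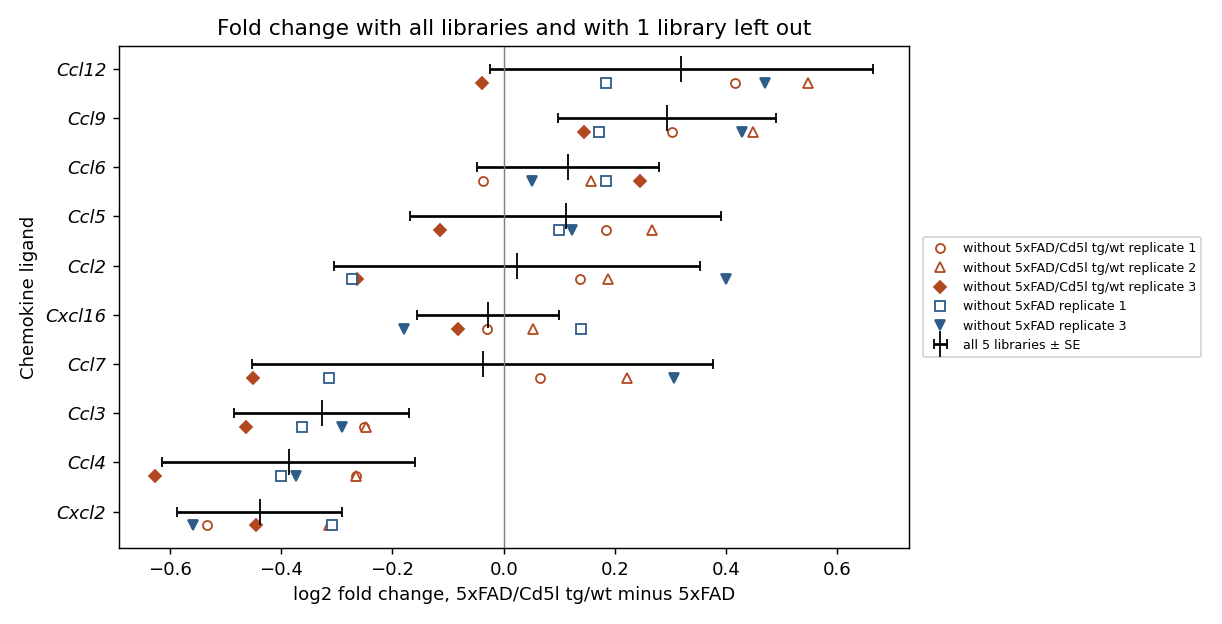
Log2 fold change of each ligand, Cd5l-transgenic minus 5xFAD (horizontal axis), with all 5 libraries (black bar, ± SE) and with 1 library left out (symbols under the bar). Cxcl2, Ccl4 and Ccl3 stay below 0 and Ccl9 above 0 with each library left out, while Ccl2, Ccl7, Ccl12, Ccl5, Ccl6 and Cxcl16 take both signs.

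Receptors of these ligands were set beside them. Of 15 tested of 23 chemokine receptor genes, edgeR called 0 higher and 0 lower, with 0 and 3 at an unadjusted p under 0.05, and DESeq2 called 1 lower (Cxcr4). Among all genes tested, 1.22% were higher and 1.46% lower at that unadjusted edgeR level, and DESeq2 called 0.0621%. Ccr1, a receptor of Ccl3, Ccl5, Ccl6 and Ccl9, averaged 12.1 ± 4.15 CPM in the Cd5l-transgenic libraries and 8.89 ± 2.36 CPM in the 5xFAD libraries (SD, n = 3 and 2), a log2 fold change of 0.44 (SE 0.34). Ccr2, also a monocyte marker, stood at 13.4, 11.5 and 14.7 CPM in the Cd5l-transgenic libraries, against 10.5 and 11.1 CPM in the 5xFAD libraries, without overlap (log2 fold change 0.30, SE 0.15, edgeR adjusted p = 0.999), where 7.2% of all genes had a higher, non-overlapping range. The 8 monocyte markers, which include Ccr2, summed to 200, 298 and 176 CPM in the Cd5l-transgenic libraries and to 138 and 142 CPM in the 5xFAD libraries, with S100a4 at 0 counts in all 5. Most of each sum was Fn1, so the sums mainly follow that gene. Fn1 stood at 156, 267 and 145 CPM in the Cd5l-transgenic libraries, against 116 and 116 CPM in the 5xFAD libraries. The part of the monocyte markers in the Ccr2 values was not tested. Cxcr6, the receptor of Cxcl16, was very low, with 11, 9 and 15 counts in the Cd5l-transgenic libraries, against 28 and 26 counts in the 5xFAD libraries (log2 fold change -1.20, SE 0.42). Cxcr2, the receptor of Cxcl2 and a neutrophil gene, stood at 2.65, 1.66 and 0.424 CPM in the Cd5l-transgenic libraries, against 1.08 and 1.24 CPM in the 5xFAD libraries. The 9 neutrophil markers, which include Cxcr2, summed to 204, 158 and 76.8 CPM in the Cd5l-transgenic libraries and to 61.4 and 80.6 CPM in the 5xFAD libraries. They were high in Cd5l-transgenic replicates 1 and 2, the libraries low in Ccl3 and Ccl4, and their part in these values was not tested. Cxcr4, the receptor of Cxcl12, fell in the DESeq2 test (adjusted p = 0.0226) and was not called by edgeR (log2 fold change -0.69, SE 0.12, adjusted p = 0.999). It stood at 50.7, 49.8 and 52.8 CPM in the Cd5l-transgenic libraries, against 93.9 and 71.2 CPM in the 5xFAD libraries, without overlap. The atypical receptor gene Ccrl2 averaged 176 ± 37.9 CPM in the Cd5l-transgenic libraries and 269 ± 38.9 CPM in the 5xFAD libraries (SD, n = 3 and 2), a log2 fold change of -0.61 (SE 0.19).

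Of the 28 other chemokine ligand genes, 16 passed the low-count filter, and edgeR called 0 higher and 0 lower, with 1 higher (Ccl28) and 0 lower at an unadjusted p under 0.05. DESeq2 called 0. Of these 16 genes, 9 had a log2 fold change above 0 and 7 below 0, with a median of 0.17. Among all genes tested, 57.1% lay below 0 and 1.22% were higher at that unadjusted edgeR level. Cxcl12, a CXC ligand made mainly by stromal and vascular cells, stood at 90.8, 242 and 73.1 CPM in the Cd5l-transgenic libraries, against 52.1 and 68.5 CPM in the 5xFAD libraries (log2 fold change 1.17, SE 0.57). Its highest library, Cd5l-transgenic replicate 2, also had the most endothelial marker RNA, at 1113 CPM for 7 markers, against 627 CPM in each of the other Cd5l-transgenic libraries and 586 and 548 CPM in the 5xFAD libraries. The endothelial markers' part in the Cxcl12 values was not tested. Ccl22, a ligand of Ccr4, stood at 1.78, 0.815 and 2.27 CPM in the Cd5l-transgenic libraries, against 0.644 and 0.959 CPM in the 5xFAD libraries, with overlap. Ccl28, an epithelial chemokine, had 12, 19 and 7 counts in the Cd5l-transgenic libraries, against 2 and 2 counts in the 5xFAD libraries.

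Genes that are switched on together with Ccl3 and Ccl4 in activated myeloid cells had their lowest sums in the same libraries, Cd5l-transgenic replicates 1 and 2. The list of 30 cytokines and NF-kB targets, of which 29 were tested, summed to 3831, 3419 and 5365 CPM in Cd5l-transgenic replicates 1, 2 and 3, against 6137 and 4789 CPM in the 5xFAD libraries. Its median log2 fold change was -0.16, with 22 of 29 below 0 and edgeR calling 0 in either direction (0 higher and 2 lower at an unadjusted p under 0.05, DESeq2 0). Among all genes tested, 57.1% lay below 0, and 1.22% were higher and 1.46% lower at that unadjusted edgeR level. Within the list the ubiquitin-editing NF-kB inhibitor Tnfaip3 stood at 544 ± 98.0 CPM in the Cd5l-transgenic libraries and 741 ± 75.4 CPM in the 5xFAD libraries (SD, n = 3 and 2), a log2 fold change of -0.45 (SE 0.17). The atypical IkB gene Nfkbid had a value of -0.56 on that scale (SE 0.26). For the cytokine gene Osm it was -0.41 (SE 0.14). The 26 immediate early genes, transcription factors and feedback regulators induced within minutes of a stimulus, summed to 17587, 16054 and 24237 CPM in the Cd5l-transgenic libraries, against 24199.6 and 23299.9 CPM in the 5xFAD libraries. Their median was -0.31, with 24 of 26 below 0 and edgeR calling 0 (0 higher and 3 lower at an unadjusted p under 0.05; DESeq2 0). The 3 were Ier3 at -0.49 (SE 0.15), Gadd45b at -0.57 (SE 0.17) and Fosb at -0.75 (SE 0.29), each on the log2 scale.

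The heat shock list was not lowest in those libraries. Its 10 genes summed to 2436, 2395 and 2530 CPM in the Cd5l-transgenic libraries, against 2138 and 2818 CPM in the 5xFAD libraries, with a median of -0.06 and 0 called by edgeR or DESeq2 (0 at an unadjusted p under 0.05). Within it Hspd1, a mitochondrial chaperonin, was at -0.08, Dnajb1, a co-chaperone of Hsp70, at -0.17 and Hspe1, the partner of Hspd1, at -0.06. Relative to the mean of the 5xFAD libraries, the immediate early sum was 0.741, 0.676 and 1.02 in Cd5l-transgenic replicates 1, 2 and 3, and the sum of Ccl3 and Ccl4 was 0.678, 0.690 and 0.983. Cd5l-transgenic replicates 1 and 2 were also the libraries with the most oligodendrocyte marker RNA, 1063 and 4179 CPM, against 362 CPM in replicate 3 and 364 and 335 CPM in the 5xFAD libraries. The part of these marker and immediate early levels in the Ccl3 and Ccl4 values was not tested.

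**Figure D5:**
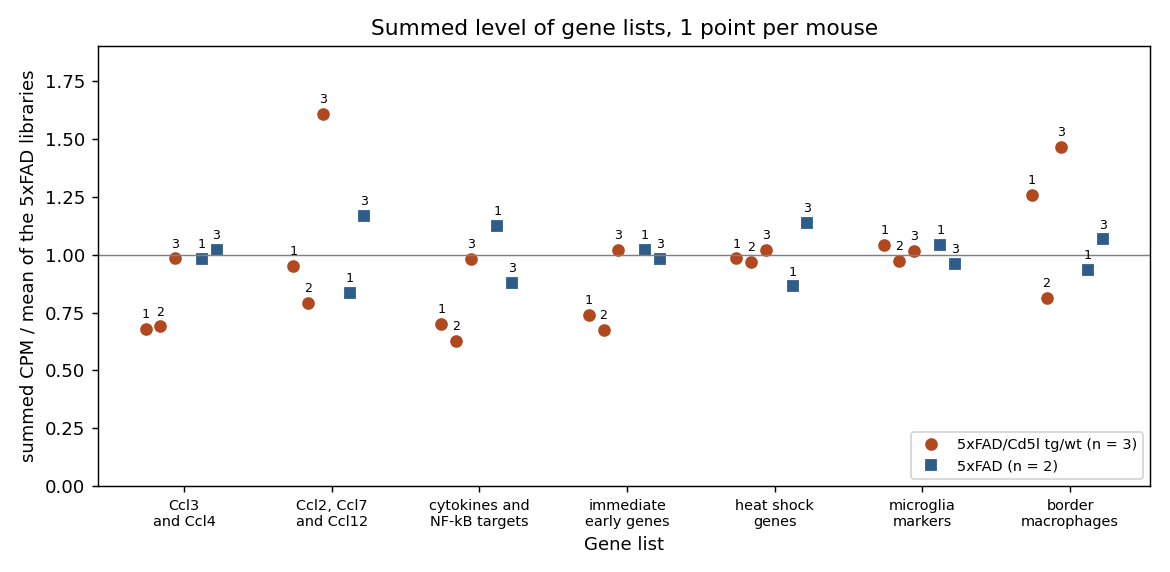
Summed CPM of gene lists in each library, divided by the mean of the 5xFAD libraries (vertical axis from 0, line at 1). Circles are Cd5l-transgenic and squares 5xFAD, numbered by replicate. Ccl3 and Ccl4, the cytokine and NF-kB list and the immediate early list are low in Cd5l-transgenic replicates 1 and 2, while the microglia markers lie between 0.96 and 1.04 in all 5 libraries.

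The likeness rule took the mean profile of Ccl3, Ccl4 and Ccl2, which are unlike in part. Ccl2 lay at a distance of 0.29 from Ccl3 and 0.30 from Ccl4, and in 5xFAD replicate 1 it was at -0.34 where Ccl3 was at 0.17 and Ccl4 at 0.24. The genes named are therefore near that mean and need not follow any of the 3 ligands. The genes nearest to the mean profile of Ccl3, Ccl4 and Ccl2 over the 5 libraries were, by root mean square distance on the log2 scale, Depdc7 (0.050), Atad5 (0.056), Ap1s2 (0.064), H2-Q5 (0.068), Hs3st3b1 (0.070), Otud1 (0.070), Ccna2 (0.073) and Gpr160 (0.074). The candidates were the 10464 genes that averaged 5 CPM or more, without the ligands themselves and without genes that have only a provisional symbol. Their median distance was 0.28. Among the 8, Ccna2 encodes cyclin A2 of the cell cycle, Atad5 a protein that unloads the replication clamp, H2-Q5 a class I histocompatibility molecule and Hs3st3b1 a heparan sulfate sulfotransferase. Otud1, a deubiquitinase gene, stood at 77.0, 84.4 and 116 CPM in Cd5l-transgenic replicates 1, 2 and 3, against 98.7 and 126 CPM in the 5xFAD libraries. Ap1s2, a subunit of a clathrin adaptor, stood at 43.1, 44.2 and 63.4 CPM in the Cd5l-transgenic libraries, against 52.1 and 58.4 CPM in the 5xFAD libraries. None of the 8 was called (edgeR adjusted p = 0.999 each).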

How the data were processed

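Counts per Ensembl gene were used from the table that the authors deposited, which covers 56748 genes in all 5 libraries. The deposited counts are whole numbers and carry no normalisation, and the table lists a gene length in bases for each gene. The build was GRCm39, per the submitters' processing notes. The sources used here give no aligner, counter, annotation release or strand setting; whether reads from opposite strands were separated is therefore unknown. No per-sample column was left unused.

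The low-count filter was filterByExpr with the groups given, in edgeR 4.0.16 under R 4.3.3. After TMM scaling, genotype was the sole term of a robust quasi-likelihood fit, with Benjamini-Hochberg adjustment over the 17724 genes and a threshold of 0.05. Differences are Cd5l-transgenic minus 5xFAD. The common biological coefficient of variation was 0.26. Each SE is the size of the log2 fold change over the square root of F. A single count was worth 0.0282 to 0.0339 CPM. Profiles used log2 CPM with a prior count of 2. The edgeR p-values set the genotype difference against the spread between these libraries, estimated in part from other genes. The scripts were tested on simulated counts. The ligands, the lists and the tests were chosen with earlier results of these data known, so no list test was made. The rule for named genes took all 10 ligands, up to 3 genes per pathway list by smallest unadjusted p, receptors of the ligands, and the 8 genes nearest in profile. A result the rule would name is not reported here. Alternatives were other size factors, filters and tests (DESeq2 1.42.0, limma-voom of limma 3.58.1), the replicate number as a block, and libraries left out; scaling on microglia markers and leaving out a pair of libraries were chosen after seeing the data. Sequence overlap between transcripts was computed on the GENCODE M21 transcripts, in stretches of 50 bases.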

Additional observations from a re-analysis of the deposited data

How the results depend on the processing

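Of the 139 log2 fold changes of ligands under 14 other settings, 122 kept their sign and side of the threshold, and 17 had the opposite sign. None passed (lowest edgeR adjusted p = 0.284, Ccl9, without Cd5l-transgenic replicate 2 and 5xFAD replicate 3 together). Ccl3, Ccl4, Cxcl2 and Ccl9 kept their sign in all 14 settings. The opposite sign was seen with library totals in place of TMM for Cxcl16 (0.010), with a filter of 5 CPM in 2 libraries for Cxcl16 (0.0041), with limma-voom for Ccl2 (-0.11) and with scaling on microglia markers for Ccl2 (-0.0069). With Cd5l-transgenic replicate 2 and 5xFAD replicate 3 left out together Ccl7 was at 0.56. With 1 library left out the ranges were -0.27 to 0.40 for Ccl2, -0.45 to 0.31 for Ccl7, -0.039 to 0.55 for Ccl12, -0.11 to 0.27 for Ccl5, -0.037 to 0.25 for Ccl6 and -0.18 to 0.14 for Cxcl16. Where 1 mouse of 5xFAD remains, it is assumed to vary like the other group. The median over the ligands lay between -0.19 and 0.18 over the 14 settings. The ratio of summed CPM lay between 0.790 and 0.915 over the 9 settings that change the scaling or leave out libraries, and was not computed for the others. Over all genes, DESeq2 called 9 higher and 2 lower, edgeR with no low-count filter called 1 lower, and edgeR without Cd5l-transgenic replicate 2 and 5xFAD replicate 3 called 14 higher and 25 lower. Of these results the causes were not tested. Ccl5 fell under the filter of 5 CPM in 2 libraries and has no value there.

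The groups share replicate numbers 1 and 3, which the labels do not describe as a shared litter or day. The deviations of same-numbered libraries from their group means correlated at 0.13 for number 1 and -0.24 for number 3 over 17724 genes. The deviations of the 2 5xFAD libraries mirror each other, so these values are not separate checks. They cannot decide whether the numbers pair the libraries. As the labels state no pairing, the main fit used none. With the replicate block 0 genes were called in either direction, Ccl7 was at 0.18 and Cxcl16 at 0.047, opposite in sign to the fit without the block, and Ccl3, Ccl4 and Cxcl2 were at -0.28, -0.32 and -0.32. Ccl12, Ccl9, Ccl5 and Ccl2 were at 0.50, 0.43, 0.23 and 0.17, above their values without the block. Ccl9 had the smallest unadjusted p of the ligands in that edgeR fit (0.00287, adjusted p = 0.9997). The block leaves fewer residual degrees of freedom than the main fit, so this p leans more on the spread of other genes. Number 2 occurs only among the Cd5l-transgenic libraries, so the block fits that library exactly. The genotype difference then rests on numbers 1 and 3. Leaving out Cd5l-transgenic replicate 2 without a block gave near values for the same genes, 0.55, 0.45, 0.27 and 0.19. The standard errors of the ligands' log2 fold changes were 0.13 to 0.41 with 3 libraries against 2. No smallest detectable change is given, since edgeR did not call Cd5l.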
